A study of Mus musculus with 3 samples.

Results

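Transcripts of 8 genes of the BCL2 family were followed across the leukocytes of the mouse aorta: the survival genes Mcl1, Bcl2, Bcl2l1 and the paralogs Bcl2a1a, Bcl2a1b and Bcl2a1d, the death-promoting Bcl2l11 and the pore-forming Bax. The genes were taken by symbol from the 32285 genes of the transcript table, and the unique molecular identifiers (UMIs, each 1 captured molecule) of each gene were summed per mouse and cell class. The set was chosen by the summed UMI levels of these same mice, which differed between macrophage subsets, neutrophils and lymphocytes, so levels between classes are given as a description with no test. The group of each mouse was known in that choice. Tests between genotypes or by severity use the same sums, so their p-values are not independent of it. Another 16 genes of the family and 17 genes of the caspase and death receptor pathways were read beside them.

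The cells were CD45+ leukocytes of digested aortas from 5 Jak2WT mice (mice 1 to 5) and 5 Jak2V617F MyC mice (mice 6 to 10, named Jak2V617F Myel in the study's text), all on a C57BL/6 background, with littermates as controls and both sexes used. In Jak2V617F MyC mice, LysM-Cre switched on the activated form of the kinase JAK2 in cells that express lysozyme, chiefly macrophages and neutrophils, so lymphocytes are not a direct target of the allele. Mice 7 and 9 had an aortic aneurysm, whereas mice 6, 8 and 10 had an aortic dilation without aneurysm, and no treatment or age was given for the mice of this experiment. Each aorta carried its own hashtag antibody and all 10 were sorted and run together, with circulating leukocytes excluded by an intravenous CD45.2 label and the sort adjusted to similar cell numbers of both genotypes.

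BCL2 family proteins decide at the outer mitochondrial membrane whether a cell enters apoptosis. Survival proteins such as MCL1, BCL2, BCL-XL (the product of Bcl2l1) and A1 (the product of the Bcl2a1 genes) hold BAX and BAK in check, while BH3-only proteins such as BIM (the product of Bcl2l11) bind the survival proteins and release BAX to open pores that let cytochrome c out and activate caspases. Neutrophils are known to depend strongly on MCL1, and myeloid cells induce A1 during inflammation, whereas resting lymphocytes rely largely on BCL2 and are removed through BIM.

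Of 8471 barcodes, 5857 carried 1 hashtag, 2265 carried several and 349 carried none that passed. After removal of 986 cells over 10% mitochondrial UMIs, 4871 cells were kept, with 112 to 811 cells and 1038443 to 9643994 UMIs per mouse. Cells were clustered without the 24 family genes and named from marker genes: 1772 were macrophages, of which 731 were LYVE-1+ resident macrophages (321 Res-MGL1hi, 254 Res-Txnip hi and 156 Res-S100hi), 492 Ccr2+ inflammatory macrophages and 428 macrophages with immediate-early genes (IEG+). Further classes were 110 neutrophils, 598 B cells and 610 T cells, the last made of a cluster of 202 cells led by Rag1, Ccr9 and Dntt and another cluster of 408 cells, and 346 cells of low RNA content stayed unnamed, while 47 cells were non-leukocytes by their markers. Smaller classes named below are group 2 innate lymphoid cells (ILC2), natural killer (NK) cells, gamma delta (gd) T cells, conventional dendritic cells (cDC1 and cDC2), interferon-responsive macrophages (IFNIC), mast cells and a myeloid cluster led by Saa3. Inflammatory macrophages were uneven among groups, with 432 of the 492 cells in the 2 mice with aneurysm, and only mice 3, 7 and 9 held at least 10 neutrophils. Levels are UMIs of a gene per 1000000 UMIs of the class in a mouse (CPM), given for mice with at least 10 cells of the class unless stated. Macrophage transcripts used to trace free RNA summed to 206 to 660 CPM in T cells and 999 to 5421 CPM in B cells, against 22591 to 27734 CPM in resident macrophages. The B cells were made of 2 clusters, of 560 and 38 cells. The smaller had a median of 16734.5 UMIs per cell, against 5388 in the larger. Its naming score was 1.42 for B cells and 0.618 for macrophages. Whether its macrophage transcripts were free RNA or came from cells captured together was not tested.

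The promoters of the genes on which the results turn are shown because the 3 Bcl2a1 paralogs are near copies of each other and because Mcl1 is the gene that differed between genotypes. Each sequence is the RefSeq window from 250 bases before to 50 bases after the transcription start on GRCm38.p6, with capitals marking the motifs searched, on both strands: the STAT motif TTCNNNGAA, the PU.1-type ETS motif GAGGAAGT, the other ETS motif CCGGAA and the CREB core TGACG. Bcl2a1a lies at chr9:88956670-88956969 on the plus strand, Bcl2a1b at chr9:89199023-89199322 on the plus strand, Bcl2a1d at chr9:88731801-88732100 on the minus strand and Mcl1 at chr3:95658471-95658770 on the plus strand.
Bcl2a1a: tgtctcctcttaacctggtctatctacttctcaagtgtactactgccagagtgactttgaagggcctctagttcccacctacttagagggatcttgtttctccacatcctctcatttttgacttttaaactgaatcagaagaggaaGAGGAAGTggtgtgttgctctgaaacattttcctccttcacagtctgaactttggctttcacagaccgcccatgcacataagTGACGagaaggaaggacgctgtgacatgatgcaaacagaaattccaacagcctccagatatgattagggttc
Bcl2a1b: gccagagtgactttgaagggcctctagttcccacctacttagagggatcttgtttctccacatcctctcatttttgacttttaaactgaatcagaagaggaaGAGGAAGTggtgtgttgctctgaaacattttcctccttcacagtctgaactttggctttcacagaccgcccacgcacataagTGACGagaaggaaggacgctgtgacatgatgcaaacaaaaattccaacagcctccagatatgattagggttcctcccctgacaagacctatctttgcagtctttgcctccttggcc
Bcl2a1d: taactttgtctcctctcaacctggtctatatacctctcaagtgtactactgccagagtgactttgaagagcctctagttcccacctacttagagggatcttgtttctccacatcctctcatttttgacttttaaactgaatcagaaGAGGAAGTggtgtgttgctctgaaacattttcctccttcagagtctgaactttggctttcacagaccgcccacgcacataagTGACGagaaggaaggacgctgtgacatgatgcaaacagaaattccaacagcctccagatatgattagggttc
Mcl1: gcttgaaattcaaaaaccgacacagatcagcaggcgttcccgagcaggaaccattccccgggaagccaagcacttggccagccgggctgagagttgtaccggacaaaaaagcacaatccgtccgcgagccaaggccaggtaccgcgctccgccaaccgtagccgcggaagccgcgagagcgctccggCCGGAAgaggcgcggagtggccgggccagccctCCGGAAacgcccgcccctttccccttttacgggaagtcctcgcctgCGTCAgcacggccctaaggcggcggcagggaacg
The PU.1-type motif stood in the windows of all 3 Bcl2a1 genes and in 3.2% of 32851 promoter windows of the same length, and the CREB core stood in all 4 windows and in 20.8% of all windows. The Mcl1 window held the other ETS motif, found in 3 of the 11 windows of the 8 genes and in 14.9% of all windows. Bcl2l1 held it only in the window of its start 3 and Bcl2l11 only in that of its start 1, and not in the other windows of these genes. The Mcl1 window was richer in G and C (65.7%) than those of Bcl2a1a (44.7%), Bcl2a1b (46.7%) and Bcl2a1d (44.3%). The STAT motif stood in 0 of the 11 windows of the 8 genes and in 8.3% of all windows, which says only that these letters are not in these windows. The motifs were chosen after the sequences were seen. The longest run of bases shared by the promoters was 174 for Bcl2a1a and Bcl2a1b and 84 for Bcl2a1d with either.

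The transcripts of the paralogs are also alike. Of the 411 windows of 90 bases in the last 500 bases of each gene's transcripts, 39.66% of those of Bcl2a1a, 39.42% of those of Bcl2a1b and 65.21% of those of Bcl2a1d occurred in another copy. Reads from these stretches cannot be assigned to 1 copy, so the split among the 3 copies is uncertain and their sum (Bcl2a1 sum) is given beside it. The sum does not restore reads that were left uncounted for this reason. Both may therefore be too low, and Bcl2a1d, with the largest shared part, may be affected most. On GRCm38 the Bcl2a1a gene spans chr9:88956900-88962419, Bcl2a1b chr9:89199209-89207827, where it overlaps Gm29094 on the same strand, and Bcl2a1d chr9:88723285-88731914, where Gm10634 runs antisense. Mcl1 spans chr3:95658788-95663176, Bcl2 chr1:106538178-106714274, Bcl2l1 chr2:152780668-152831728, Bcl2l11 chr2:128126038-128162547 and Bax chr7:45461697-45466898.

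**Figure D1:**
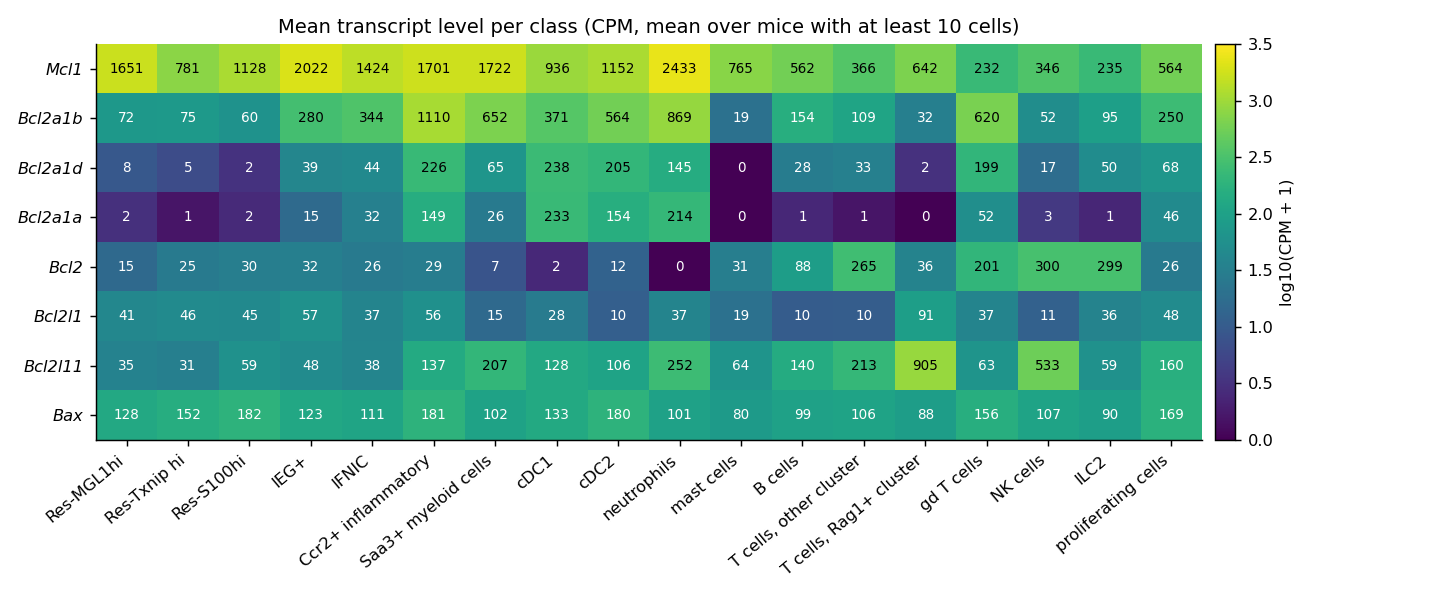
Mean level of the 8 genes in 18 cell classes, as CPM of the summed UMIs averaged over mice with at least 10 cells of the class; color is log10(CPM + 1) and each cell of the map prints the mean in CPM. Mcl1 was highest in neutrophils (2433) and IEG+ macrophages (2022), Bcl2 in NK cells (300) and ILC2 (299), and Bcl2l11 in the Rag1+ T cell cluster (905).

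Mcl1, the survival protein on which neutrophils are known to depend, varied among the macrophage subsets. Resident macrophages of the Res-Txnip hi subset had 781 ± 84.7 CPM (mean ± SD, n = 10 mice), Res-S100hi 1128 ± 116 CPM (n = 8) and Res-MGL1hi 1651 ± 275 CPM (n = 7), and Res-MGL1hi exceeded Res-Txnip hi in 7 of the 7 mice that held both. Mcl1 reached 2022 ± 283 CPM in IEG+ macrophages (n = 9), above resident macrophages in 9 of 9 mice, and 1701 ± 281 CPM in Ccr2+ inflammatory macrophages (n = 5), above resident macrophages in 4 of 5. Neutrophils had 2330, 2716 and 2252 CPM in mice 3, 7 and 9, above the resident macrophages in 3 of 3. The lymphoid classes were lower: B cells had 562 ± 191 CPM (n = 9), the Rag1+ T cell cluster 642 ± 106 CPM (n = 4), other T cells 366 ± 66.9 CPM (n = 10), ILC2 235 ± 49.9 CPM (n = 9) and gd T cells 232 ± 26.1 CPM (n = 4). Neutrophils and IEG+ macrophages, neighbors at the top of the order, overlapped among mice, as did ILC2 and gd T cells at the bottom.

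Mcl1 was higher in resident macrophages of Jak2V617F MyC mice than of Jak2WT mice. The 5 Jak2WT mice had 908, 1025, 1067, 986 and 931 CPM, and the Jak2V617F MyC mice 6 to 10 had 1481, 1526, 1334, 1526 and 1453 CPM. The groups did not overlap: the lowest mutant mouse lay above the highest Jak2WT mouse. The log2 fold change was 0.60 ± 0.088 (SE, 1.52-fold; edgeR quasi-likelihood test, adjusted p = 0.0013), and leaving out each mouse in turn gave 0.56 to 0.63 with the call kept. Of the 6 members that passed the filter on low counts (Bcl2a1a and Bcl2a1d did not), Mcl1 was the 1 called, against a background of 2.26% of the 6915 genes tested (119 higher and 37 lower in Jak2V617F MyC). The members had been chosen from sums of these same mice, so this call is not independent of that choice.

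The makeup of the resident macrophages differed between the genotypes, and the difference in Mcl1 was not seen inside the Res-Txnip hi and Res-S100hi subsets. Res-MGL1hi cells were 22.2% of the resident macrophages of Jak2WT mice (9.26% to 42.2% per mouse) and 55.7% of those of Jak2V617F MyC mice (50.7% to 61.8%), while Res-Txnip hi cells were 58.8% (35.6% to 76.7%) and 21.7% (16.3% to 27.6%). In Res-Txnip hi cells, Mcl1 was 796, 669, 915, 784 and 642 CPM in Jak2WT mice and 751, 894, 795, 796 and 766 CPM in Jak2V617F MyC mice, ranges that overlapped (log2 fold change 0.05, edgeR adjusted p = 0.98). In Res-S100hi cells the 3 Jak2WT mice with at least 10 cells had 1150, 1143 and 1000 CPM and the mutant mice 945, 1206, 1162, 1315 and 1101 CPM (log2 fold change 0.07, edgeR adjusted p = 0.97). In Res-MGL1hi cells, Jak2WT mice 2 and 5 had 1165 and 1402 CPM and the mutant mice 1851, 1876, 1616, 1775 and 1872 CPM, with no overlap but only 2 Jak2WT mice (log2 fold change 0.47, edgeR adjusted p = 0.34). The Jak2WT mice 1, 3 and 4, with 5 Res-MGL1hi cells each, had 1016, 2036 and 1920 CPM. These within-subset fits were added after the data were seen and used the main clustering only. Other settings drew the subsets differently. With a 5% mitochondrial limit or low-RNA clusters kept, no cluster was named Res-MGL1hi. Cells led by Cd209d and Aqp1 then shared a cluster named Res-S100hi (355 and 364 cells). With immediate-early genes left out of clustering they shared one named Res-MGL1hi (371 cells), and Res-S100hi held 40 cells with a median of 3508.5 UMIs.

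Other measures moved with Mcl1 across all resident macrophages, and their part in the result was not tested. The summed level of 14 immediate-early and heat-shock genes, which digestion of tissue can induce, was 19213 to 34564 CPM in Jak2WT mice (median 25255) and 31763 to 37820 CPM in Jak2V617F MyC mice (median 35482), and all 14 were tested, of which 2 were called higher and 0 lower, beside 2.26% of all genes (median log2 fold change 0.44, against -0.014 over all genes). All 14 were higher in mutant mice, 12 of them at an unadjusted edgeR p under 0.05. Over all 6915 genes, 971 stood under that limit in either direction. Inside Res-MGL1hi cells the immediate-early and heat-shock sum was 51570 and 52392 CPM in Jak2WT mice 2 and 5. It was lower in mutant mice, at 41208 to 51258 CPM. In IEG+ macrophages of Jak2WT mice 1, 2, 3 and 5 it was 53465 to 57834 CPM. It was again lower in mutant mice, at 36281 to 53219 CPM. Its ranges overlapped between genotypes in Res-Txnip hi and Res-S100hi cells. Over mice with at least 10 cells it was 12751 to 22476 CPM in Res-Txnip hi and 18119 to 22526 CPM in Res-S100hi cells. Both lay below Res-MGL1hi cells, the subset with the highest Mcl1 of the resident macrophages. The median UMI count per resident macrophage was 7601 to 10282 in Jak2WT mice and 10792 to 12843 in Jak2V617F MyC mice. The summed level of 5 B cell markers moved the other way, at 298 to 401 CPM in Jak2WT mice and 189 to 291 CPM in Jak2V617F MyC mice, against 4169 to 7144 CPM in B cells. Among them, Ighm gave 324 CPM with the Jak2WT mice summed and 195 CPM with the Jak2V617F MyC mice summed, and Cd79a, Cd79b and Ms4a1 stood between 1.26 and 15.6 CPM. When the IEG+ macrophages were added to the resident class the log2 fold change of Mcl1 was 0.39 and the call was lost (edgeR adjusted p = 0.098).

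**Figure D2:**
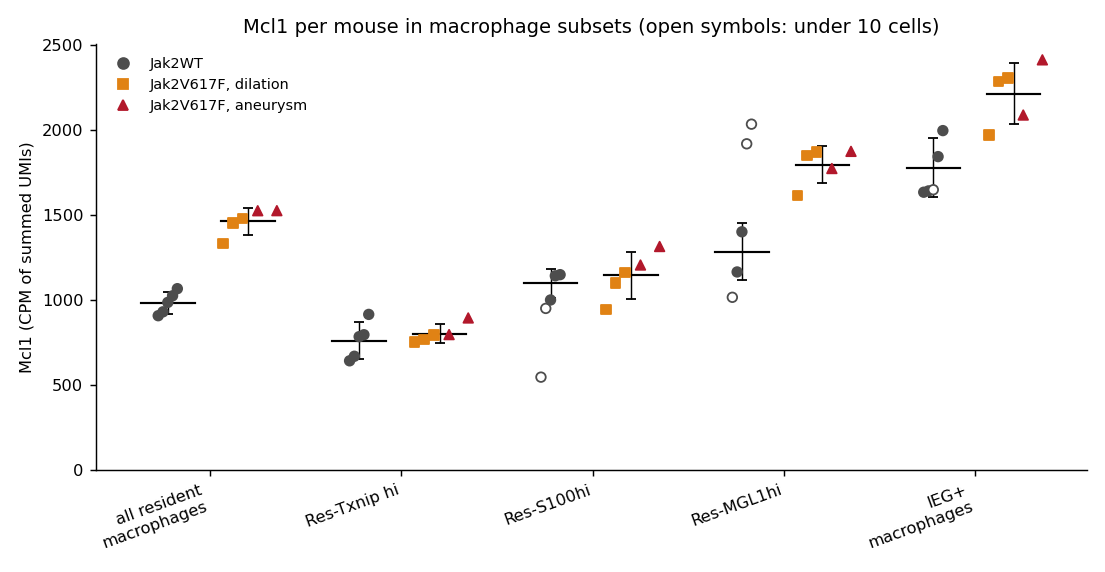
Mcl1 level (CPM of the summed UMIs) in each mouse, in all resident macrophages, the 3 resident subsets and IEG+ macrophages; open symbols are mice with under 10 cells, and bars give the mean ± SD over the mice with at least 10. The genotypes are apart in all resident macrophages (908 to 1067 against 1334 to 1526 CPM) and overlap in Res-Txnip hi and Res-S100hi cells.

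In the other classes Mcl1 did not pass the test between genotypes. IEG+ macrophages had 1643, 1998, 1845 and 1635 CPM in Jak2WT mice 1, 2, 3 and 5 and 2309, 2415, 1973, 2090 and 2288 CPM in mice 6 to 10, which overlapped by 1 mouse on each side (log2 fold change 0.27 ± 0.10 SE, edgeR adjusted p = 0.36). In this class 0 of the 7 members tested were called, against 0.0435% of 4595 genes, and DESeq2 called 0 members. Mcl1 was the 1 member at an unadjusted edgeR p under 0.05, a limit that 434 of the 4595 genes also met. B cells had 372, 603, 320 and 464 CPM in Jak2WT mice and 628, 557, 564, 988 and 567 CPM in mutant mice (log2 fold change 0.58 ± 0.21 SE, edgeR adjusted p = 0.99), and the mouse at 988 CPM, mouse 9, was the one with the highest level of macrophage tracers in B cells (5421 CPM). Over 24 alternatives, among them B cells without the smaller cluster, the log2 fold change was 0.41 to 0.73 and Mcl1 was not called. In T cells the log2 fold change was 0.07 ± 0.17 (SE, edgeR adjusted p = 0.96). The genotype difference of Mcl1 in resident macrophages minus that in T cells, tested as an interaction over the 20 sums of 10 mice, was 0.56 ± 0.19 (SE, edgeR adjusted p = 0.33). Both classes come from the same mice, and with the mouse as a block, a fit added after the data were seen, the difference was 0.56 ± 0.22 (SE, edgeR adjusted p = 0.39). In the test without the block 0 of 6 members were called, against 0.046% of 6516 genes. Mcl1 was the 1 member at an unadjusted edgeR p under 0.05 there, beside 660 of the 6516 genes. DESeq2 without the block called Mcl1 in the same comparison (log2 difference 0.59, adjusted p = 0.020), where it called 61 of 6516 genes.

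The Bcl2a1 genes, which encode the A1 survival proteins induced through inflammatory signaling, were higher in the inflammatory than in the resident macrophages. The Bcl2a1 sum was 1084, 1597, 1887, 1787 and 1073 CPM in the inflammatory macrophages of mice 2, 6, 7, 9 and 10, against 83.3 ± 38.4 CPM (n = 10) in resident macrophages. It was higher in the inflammatory cells of all 5 mice, with a ratio of medians of 19.3. Between genotypes no test was run in these cells, since mouse 2 was the 1 Jak2WT mouse with at least 10 of them. The Jak2WT mice 1, 4 and 5, with 3 to 6 cells each, had 347, 1442 and 2290 CPM, a range that holds all values of the mutant mice. Summed over the mice of a group, the Bcl2a1 sum was 1221 CPM in Jak2WT mice (26 cells, exact 95% Poisson interval 1105 to 1347), 1175 CPM with dilation (34 cells, 1077 to 1279) and 1836 CPM with aneurysm (432 cells, 1802 to 1870), intervals that cover counting error only. IEG+ macrophages lay between, at 334 ± 101 CPM (n = 9), above the resident macrophages in 9 of 9 mice. Among the other myeloid classes the Bcl2a1 sum was 923 ± 390 CPM in cDC2 (n = 9), 843 ± 441 CPM in cDC1 (n = 4) and 743 ± 99.7 CPM in Saa3+ myeloid cells (n = 3). In IFNIC it was 217, 485 and 559 CPM in mice 4, 6 and 9. Mast cells were low, at 0, 56.4, 0 and 20.1 CPM in mice 5, 6, 7 and 10. Lymphoid classes ranged from 33.7 CPM in the Rag1+ T cell cluster through 142 ± 93.3 CPM in other T cells and 183 ± 62.4 CPM in B cells to 871 ± 334 CPM in gd T cells.

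By UMIs, which count molecules whatever their length, Bcl2a1b was the most abundant of the 3 copies in inflammatory macrophages. It had 1110 ± 320 CPM, Bcl2a1d 226 ± 56.7 CPM and Bcl2a1a 149 ± 43.6 CPM (n = 5). In cDC1 the copies were closer, at 371 CPM for Bcl2a1b, 238 CPM for Bcl2a1d and 233 CPM for Bcl2a1a, whereas Bcl2a1a was near 0 in other T cells (0.59 CPM) beside 109 CPM of Bcl2a1b. Levels of the copies are subject to the shared sequence described above.

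Neutrophils differed more among mice in the Bcl2a1 genes than in Mcl1. The Bcl2a1 sum was 212 CPM in mouse 3 (Jak2WT), 1026 CPM in mouse 7 and 2448 CPM in mouse 9 (both with aneurysm). The mice with under 10 neutrophils had 0, 37.3, 0 and 209 CPM (Jak2WT mice 1, 2, 4 and 5) and 162, 826 and 424 CPM (mice 6, 8 and 10). With all cells of a group summed, Jak2WT mice had 26 UMIs in 42 neutrophils (143 CPM, exact 95% Poisson interval 93.2 to 209), mice with dilation 22 UMIs in 15 cells (328 CPM, 206 to 497) and mice with aneurysm 672 UMIs in 53 cells (2083 CPM, 1929 to 2247). Bcl2a1d had 0 of 182244 UMIs in Jak2WT neutrophils (exact 95% Poisson interval 0 to 20.2 CPM, where 3 UMIs would be 16.5 CPM). It had 93 UMIs in mouse 9 (388 CPM), 4 UMIs in mouse 7 (48.3 CPM) and 3 UMIs in mouse 8 (248 CPM, 3 cells), so the UMIs in mice with aneurysm came mainly from mouse 9. Bcl2l11 in neutrophils was 127, 290 and 338 CPM in mice 3, 7 and 9, and Mcl1 in the summed groups was 2332 CPM in Jak2WT mice, 2908 CPM with dilation and 2371 CPM with aneurysm. These intervals cover counting error only, and no test between groups was run at 10 cells per mouse because a single Jak2WT mouse and no mouse with dilation reached it. In mouse 9, the neutrophil markers summed to 60507 CPM, against 169380 CPM in mouse 3 and 200800 CPM in mouse 7, and the macrophage tracers to 3458 CPM, against 508 and 314 CPM. The part of these cells' makeup in the Bcl2a1 levels was not tested. When mice with at least 1 neutrophil entered the edgeR fit, 0 members were called between genotypes (1 member passed the filter) or by severity (5 members passed). That fit included mice with as few as 3 neutrophils, so the absence of calls does not show that levels were alike.

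**Figure D3:**
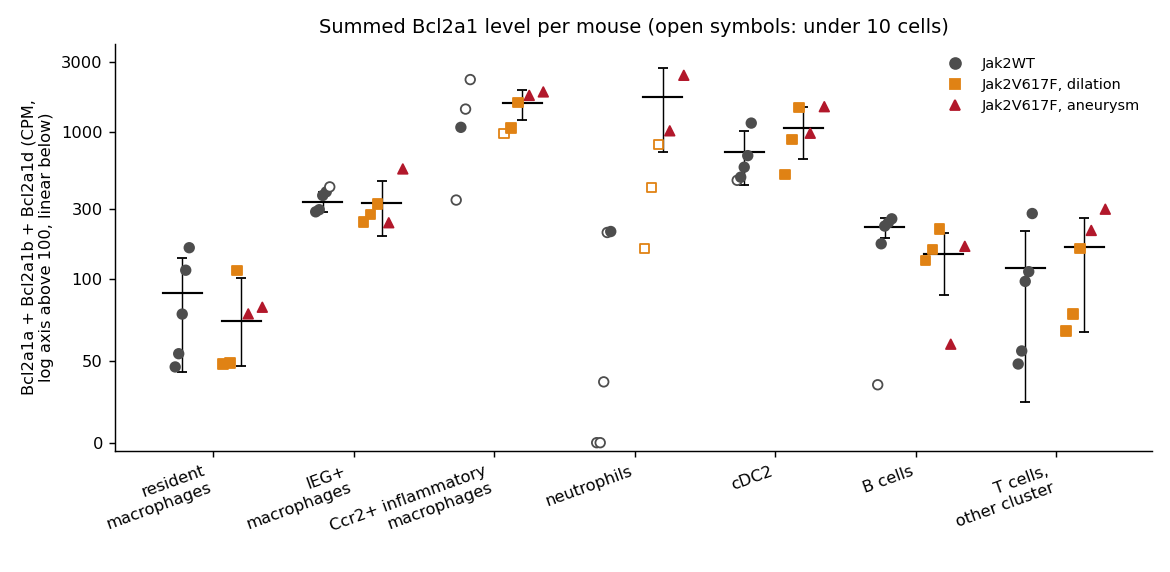
Summed level of Bcl2a1a, Bcl2a1b and Bcl2a1d (CPM, log axis above 100 and linear below) in each mouse, by cell class; open symbols are mice with under 10 cells, and bars give the mean ± SD over mice with at least 10 where there are 2 or more. Inflammatory macrophages of mice with at least 10 cells sit between 1073 and 1887 CPM, above all resident macrophages, and neutrophils spread from 212 to 2448 CPM.

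Bcl2, the survival protein of resting lymphocytes, was highest in lymphoid classes, whereas Mcl1 was highest in myeloid classes. The top Bcl2 levels were in NK cells (300 CPM, n = 2), ILC2 (299 ± 78.3 CPM, n = 9), T cells outside the Rag1+ cluster (265 ± 154 CPM, n = 10) and gd T cells (201 ± 121 CPM, n = 4), whose ranges overlapped. B cells had less Bcl2 (87.7 ± 24.7 CPM, n = 9) than other T cells in 9 of 9 mice. Bcl2 was 14.9 to 31.8 CPM in the resident subsets, IEG+ and inflammatory macrophages, and 4 UMIs of 571920 were found in all neutrophils (6.99 CPM, exact 95% Poisson interval 1.91 to 17.9).

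In resident macrophages Bcl2 was 25.1, 39.2, 34.4, 20.04 and 24.6 CPM in Jak2WT mice and 19.3, 11.4, 16.8, 24.4 and 19.8 CPM in Jak2V617F MyC mice. The ranges overlapped, and Bcl2 did not pass the test (log2 fold change -0.57 ± 0.25 SE, edgeR adjusted p = 0.29). In the same edgeR fit Bcl2l1 (0.52 ± 0.26 SE, adjusted p = 0.37), Bcl2l11 (0.35 ± 0.22 SE, adjusted p = 0.51), Bax (0.09 ± 0.12 SE, adjusted p = 0.83) and Bcl2a1b (-0.27 ± 0.31 SE, adjusted p = 0.80) did not pass either.

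**Figure D4:**
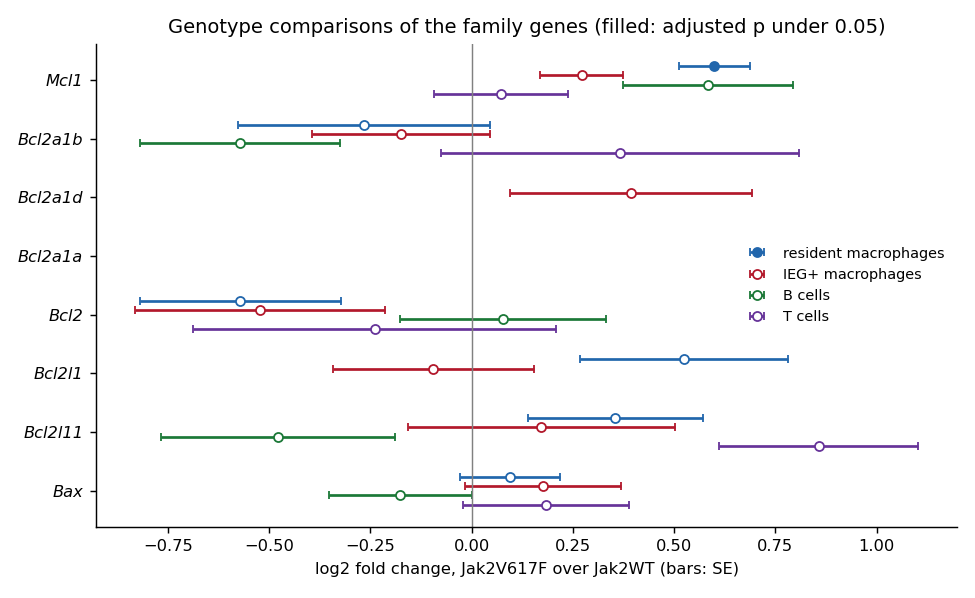
Log2 fold change of each gene, Jak2V617F MyC over Jak2WT, in resident macrophages, IEG+ macrophages, B cells and T cells, with bars for the SE of the edgeR fit; filled symbols passed an adjusted p of 0.05 and a gene below the filter has no symbol. Mcl1 in resident macrophages (0.60) is the 1 filled symbol.

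The 2 T cell clusters had different family profiles. The Rag1+ cluster expressed Rag1 and Dntt, which rearrange and edit antigen receptor genes in developing lymphocytes, beside Cd8b1, and held 72 cells of Jak2WT mice, 106 of mice with dilation and 24 of mice with aneurysm. These cells sat in few mice: mice 3, 6, 9 and 10 held 70, 34, 24 and 68 of them, and mice 2, 4 and 8 held 1, 1 and 4. In mouse 6 they were 34 of 45 T cells. The median cell of the cluster held 3355 UMIs, and 7737.5 in the remaining T cells. Bcl2l11 was 610, 1056, 1226 and 727 CPM in the Rag1+ cells of mice 3, 6, 9 and 10, and 143, 353, 136 and 275 CPM in the other T cells of the same mice. It was thus higher in the Rag1+ cells of 4 of 4 mice (medians 891 and 209 CPM).

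Bcl2 went the other way, with medians of 31.5 CPM in the Rag1+ cells and 237 CPM in the other T cells, and was lower in 4 of 4 mice. Bcl2l1, which encodes the survival protein BCL-XL of immature thymocytes, was higher in 4 of 4 (83.7 against 7.87 CPM), as was Mcl1 (654 against 355 CPM), while Bcl2a1b was lower in 4 of 4 (29.8 against 102 CPM). Bax was higher in 1 of 4. Among all 18 classes the Rag1+ cluster had the highest mean of Bcl2l11 (905 ± 286 CPM) and Bcl2l1 (90.5 ± 16.9 CPM), followed for Bcl2l11 by NK cells (533 CPM, n = 2) and neutrophils (252 ± 110 CPM, n = 3). Because the clusters were drawn from transcripts of the same cells, no test was made between them.

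**Figure D5:**
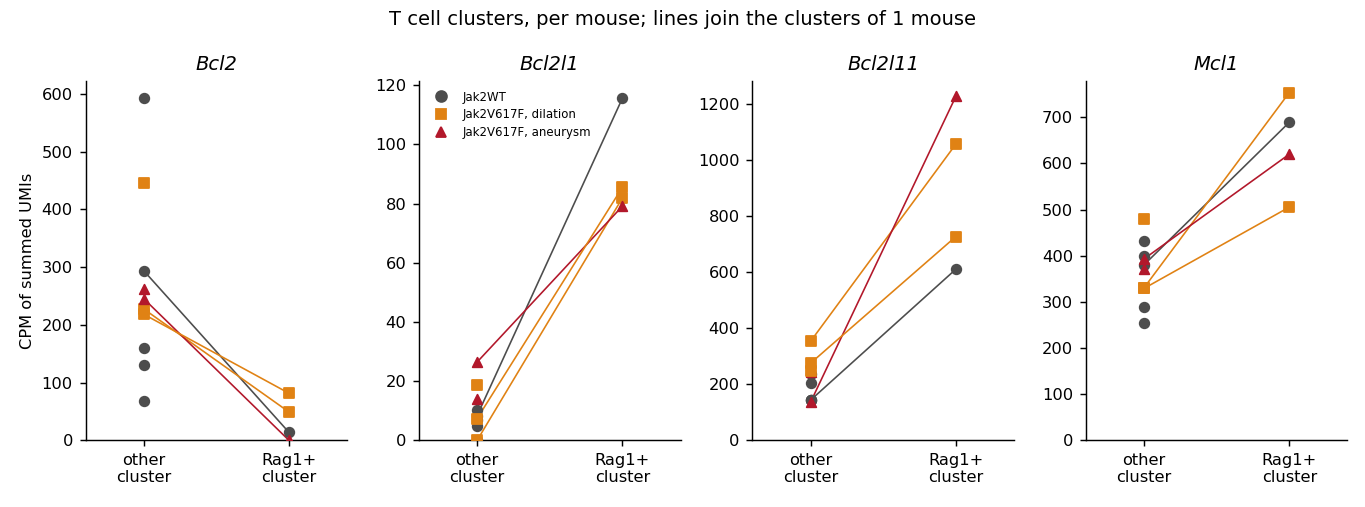
Levels (CPM of the summed UMIs) of Bcl2, Bcl2l1, Bcl2l11 and Mcl1 per mouse in the other T cell cluster and the Rag1+ cluster, with lines joining the clusters of 1 mouse. In the 4 mice with both, Bcl2 is lower and Bcl2l1, Bcl2l11 and Mcl1 are higher in the Rag1+ cluster.

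Between genotypes, 0 of 5 members were called in T cells (0% of 3828 genes; 378 genes at an unadjusted p under 0.05, and 3 genes by DESeq2) and 0 of 5 in B cells (0% of 3621 genes; 152 at an unadjusted p under 0.05, and 0 by DESeq2). At an unadjusted p under 0.05 stood Bcl2l11 in T cells and Mcl1 and Bcl2a1b in B cells. Bcl2l11 in T cells was 145, 151, 239, 215 and 237 CPM in Jak2WT mice and 762, 244, 274, 379 and 450 CPM in Jak2V617F MyC mice, with no overlap (log2 fold change 0.86 ± 0.25 SE, edgeR adjusted p = 0.29). Without the Rag1+ cluster the log2 fold change of Bcl2l11 was 0.39 (edgeR adjusted p = 0.68).

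Bax, the pore-forming effector, was the most even of the 8 genes by class means. Its class means ran from 79.6 CPM in mast cells to 182 CPM in Res-S100hi macrophages over the 18 classes. Bax was not called in any comparison, but neutrophils had no test at 10 cells per mouse. With all neutrophils of a genotype summed, Bax was 27.4 CPM in Jak2WT mice (5 UMIs, exact Poisson interval 8.91 to 64.0). It was 162 CPM in Jak2V617F MyC mice (63 UMIs, 124 to 207), where 48 UMIs came from mouse 9. These intervals cover counting error only. By mouse, with as few as 3 cells, the genotypes overlapped (0 to 187 and 0 to 200 CPM). Bcl2l1 was low in most macrophages (43.8 ± 16.6 CPM in resident, 57.4 ± 14.9 CPM in IEG+ and 56.3 ± 8.11 CPM in inflammatory macrophages) and lower still in B cells (9.53 CPM) and other T cells (9.71 CPM). Bcl2l11 was 39.4 ± 10.1 CPM in resident macrophages (n = 10) and 137 ± 63.7 CPM in inflammatory macrophages (n = 5), higher in the inflammatory cells of 5 of 5 mice.

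The mice with aneurysm and with dilation were compared within the Jak2V617F MyC group, and no member passed the test in any class. The percentages of genes called were 0.0664% of 7527 in resident macrophages (6 members tested), 0.0613% of 4895 in IEG+ macrophages (7 members), 0.0952% of 8400 in inflammatory macrophages (8 members), 0.0761% of 3940 in B cells (5 members) and 0% of 4692 in T cells (7 members), where 204 genes had an unadjusted p under 0.05 and DESeq2 called 4. Over the 5 comparisons, edgeR and DESeq2 called 0 members, and 4 members had an unadjusted p under 0.05: Bcl2a1a and Bcl2l11 in inflammatory macrophages and Bcl2a1b and Bcl2a1d in T cells. At that limit stood 782 of 8400 genes in inflammatory macrophages and 407 of 7527 in resident macrophages. In IEG+ macrophages it was 246 of 4895 genes, and in B cells 193 of 3940. The comparisons rest on 2 mice against 3, and on 2 against 2 in inflammatory macrophages.

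In inflammatory macrophages Bcl2l11 was 69.4 and 115 CPM in mice 6 and 10 with dilation and 179 and 225 CPM in mice 7 and 9 with aneurysm (log2 fold change 1.03 ± 0.31 SE, edgeR adjusted p = 0.33). Without mouse 10 the log2 fold change was 1.72, but this sets mouse 6 alone (7 UMIs in 11 cells) against 2 mice. The spread in that fit was taken from the mice with aneurysm, with mouse 6 assumed to vary like them. Bcl2a1a (0.66 ± 0.29 SE, edgeR adjusted p = 0.51) and Bcl2a1b (0.57 ± 0.27 SE, adjusted p = 0.54) did not pass. Mcl1 differed by -0.21 ± 0.27 (SE) in these cells and by 0.08 ± 0.10 (SE) in resident macrophages. In T cells Bcl2a1d was 0, 10.8 and 18.1 CPM in mice 6, 8 and 10 and 86.8 and 52.9 CPM in mice 7 and 9 (log2 fold change 2.56 ± 0.59 SE, edgeR adjusted p = 0.64). Among Jak2WT mice, which were outside this comparison, mouse 4 had 74.3 CPM (9 UMIs in 12 cells) and the others 8.55 to 26.0 CPM. By severity Bcl2a1d passed in edgeR without the filter on low counts (adjusted p = 6.0e-05), where 61 of 13567 genes were called. It also passed in edgeR without the Rag1+ cluster (log2 fold change 2.04, adjusted p = 0.031), where 20 of 3635 genes were called.

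Of the other genes of the pathway, 2 were higher in resident macrophages of Jak2V617F MyC mice. Cflar, which encodes the caspase-8 inhibitor c-FLIP, was 155 to 186 CPM in Jak2WT mice and 223 to 331 CPM in Jak2V617F MyC mice (log2 fold change 0.63 ± 0.13 SE, edgeR adjusted p = 0.013), and Birc3, which encodes the ubiquitin ligase cIAP2, was 82.3 to 124 and 130 to 222 CPM (0.65 ± 0.16 SE, adjusted p = 0.033). Neither range overlapped between genotypes. Inside Res-Txnip hi cells both overlapped: Cflar was 76.9 to 143 CPM in Jak2WT mice and 56.8 to 173 CPM in Jak2V617F MyC mice (log2 fold change -0.0060, edgeR adjusted p = 0.997), and Birc3 30.7 to 93.9 and 56.8 to 108 CPM (0.39, adjusted p = 0.85). In Res-MGL1hi cells Cflar was 212 and 210 CPM in Jak2WT mice 2 and 5 and 274 to 389 CPM in mutant mice (0.49, edgeR adjusted p = 0.52). Jak2WT mice 1, 3 and 4, with 5 such cells each and outside the fit, had 163, 285 and 391 CPM. Birc3 was 207 and 221 CPM in mice 2 and 5 and 173 to 301 CPM in mutant mice (0.022, edgeR adjusted p = 1.0). In Res-S100hi cells the log2 fold change was 0.19 for Cflar (edgeR adjusted p = 0.94) and 0.011 for Birc3 (adjusted p = 1.0). These 2 calls were less stable than that of Mcl1: Cflar was lost in 9 of 28 alternatives and Birc3 in 14, against 4 for Mcl1.

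Counted by list, 10 of 13 genes of the caspase machinery were tested in resident macrophages, of which 1 was called higher and 0 lower, beside 2.26% of all genes (median log2 fold change 0.15), and 3 of 4 genes of the death receptor arm, of which 1 was called higher and 0 lower (0.19). None of the 5 tested genes among the other 16 of the family was called: 3 of 7 further BH3-only genes, 1 of 2 pore-forming genes, 1 of 4 relatives and 0 of 3 survival genes passed the filter. The median over all genes tested was -0.014. In the other comparisons, where 0% to 0.0952% of all genes were called, 0 of the listed genes were called. Jak2 itself, whose allele the model switches, was 17.9 to 44.1 CPM in resident macrophages of Jak2WT mice and 16.8 to 29.0 CPM in those of Jak2V617F MyC mice (log2 fold change -0.11, edgeR adjusted p = 0.92). The summed counts do not tell the mutant from the normal transcript.

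Some genes followed the members across the classes more closely than others. The likeness was the Pearson correlation of log2 mean levels over 18 classes among 6355 genes, given as a description, since the classes share mice and a library. Mcl1 was most like Marcksl1 (r = 0.956), Nfe2l2 (0.938) and Sdcbp (0.910), and the Bcl2a1 sum most like Bcl3 (0.849), Pim1 (0.812) and Pde4b (0.810). Bcl2 was most like Gimap3 (0.908), Gimap8 (0.895) and Cers4 (0.887), and Bcl2l11 most like Ezr (0.83) and Ngdn (0.815). For Bcl2l1 the closest were Srek1ip1 (0.792), Rcbtb2 (0.771) and Fkbp5 (0.741), and for Bax Tpm3 (0.830), Susd3 (0.787) and Ctdnep1 (0.780).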

How the data were processed

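The deposited files of 1 pooled CITE-seq run were used: a matrix of UMI counts per gene and cell, and the antibody tag counts that carry the hashtags, made by the authors with 10x 3' v3 chemistry and Cell Ranger 6.0.2 on mm10, unnormalized, with no cell annotation used. Hashtags were called with HTODemux in Seurat 5.3.0 (R 4.3.3), cells with several hashtags were removed, and doublets within a mouse were not searched for. Following the study's methods, cells up to 10% mitochondrial UMIs were clustered on 2000 variable genes and 20 components at a resolution of 0.3, with macrophages reclustered at 0.8; the 24 family genes were left out of the variable genes, and clusters were named from fixed markers, so classes are rebuilt and may differ from the study's.

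The mouse was the replicate. Counts were summed per mouse and class (at least 10 cells) and tested two-sided with edgeR 4.0.16 quasi-likelihood (TMM scaling, filterByExpr, Benjamini-Hochberg over all genes tested, adjusted p under 0.05), after testing on simulated data; comparisons with fewer than 2 mice in a group were not tested, except where leaving out a mouse left 1. DESeq2 1.42.0 was an alternative, beside other hashtag calls, filters, clusterings, scalings and leaving out each mouse. Members, gene lists and tests were chosen with earlier results of these data known. Genes named are the 8 members, Jak2, listed pathway genes that were called or had the highest mean levels, and the 3 genes most like each member, some of which are not reported here. Surface protein tags other than hashtags were not used. Depth per mouse stands with the first results, and Poisson intervals cover counting error only. Promoters came from RefSeq (GRCm38.p6).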

Additional observations from a re-analysis of the deposited data

Results flagged for a closer look

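Within groups of 4 or 5 mice, 72 sets of values of the 8 genes could be searched for a single mouse far from the others (Dixon's test at 95%), and 7 stood out; chance alone gives about 1 in 20. In B cells of Jak2V617F MyC mice, Mcl1 was 988 CPM in mouse 9 (16 cells) and 557 to 628 CPM in the others, and that mouse's B cells also had the highest macrophage tracers (5421 CPM, against 999 to 2733 CPM in the other B cells), whose part in the value was not tested. In IEG+ macrophages of Jak2WT mice, Bcl2l11 was 76.1 CPM in mouse 3 (29 UMIs) and 30.5 to 32.8 CPM in the others. In resident macrophages of Jak2WT mice, Bax was 180.4 CPM in mouse 4 (24 cells) and 136 to 149 CPM in the others.

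The other 4 rest on few UMIs of the Bcl2a1 genes in lymphocytes. In T cells of Jak2WT mice, Bcl2a1d was 74.3 CPM in mouse 4 (9 UMIs in 12 cells) and 8.55 to 26.0 CPM in the others. Bcl2a1a was 0.95 CPM in T cells of mouse 3 (1 UMI), 4.69 CPM in T cells of mouse 7 (2 UMIs) and 2.06 CPM in B cells of mouse 10 (2 UMIs), with the other mice of each group at 0.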

How the results depend on the processing

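The call of Mcl1 between genotypes in resident macrophages held in 24 of 28 alternatives (log2 fold change 0.45 to 0.65, 0.56 to 0.63 with each mouse left out) and was lost in 4, so that 0 members were called with IEG+ macrophages added (0.39, adjusted p = 0.098; 38 genes called against 156), in Res-MGL1hi alone (0.47, adjusted p = 0.34; 1 gene, 2 Jak2WT mice), in Res-Txnip hi alone (0.05, adjusted p = 0.98; 0 genes) and in Res-S100hi alone (0.07, adjusted p = 0.97; 0 genes, 3 Jak2WT mice). Among the 28, the limits of at least 20 cells and at least 1 cell repeated the main fit, as each mouse held at least 24 resident macrophages. Summing the Bcl2a1 genes left Mcl1 nearly unchanged (0.60). These settings could hardly alter a call and are counted as kept for Mcl1, Cflar and Birc3. Cflar was called in 19 of 28 alternatives (-0.0060 in Res-Txnip hi alone) and Birc3 in 14, and Birc3 was lost on leaving out 5 of the 10 mice in turn (edgeR adjusted p up to 0.13).

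By severity in T cells, 2 members were called with no filter (Bcl2a1d and Bcl2a1b), where 61 of 13567 genes were called. Without the Rag1+ cluster 1 member was called, with 20 of 3635 genes, while the main fit called 0 members and 0% of 4692 genes. In inflammatory macrophages, where 0 members were called in the main fit, leaving out a mouse leaves 1 mouse in a group. The log2 fold change of Bcl2l11 was then 0.77 to 1.72. In the interaction DESeq2 called 1 member and 61 of 6516 genes, against 0 members and 3 genes in the main test. The replicate block by mouse called 0 members (14 genes against 3). Genes called in resident macrophages ranged from 0 to 440 (no filter). The resident subsets themselves were drawn differently under some clusterings, as described with the subset results. Reversed signs were seen for results not called: Bcl2 in Res-MGL1hi alone (0.68), Bcl2a1b in Res-MGL1hi alone (0.53) and with hashtags called by MULTIseqDemux (0.032), and Mcl1 in T cells with at least 20 cells (-0.014), without the Rag1+ cluster (-0.015) and over mice left out (-0.014 to 0.14). Of 1321 alternatives of 61 uncalled member results, 83 changed sign and 5 passed the test. Among 7 classes compared under other settings (resident, IEG+ and inflammatory macrophages, neutrophils, B cells and the T cell clusters, so not NK cells or ILC2), the class with the highest level was kept for 8 of 8 members except with MULTIseqDemux hashtags (7 of 8). The cause of these changes was not tested. Within a class, no paired analysis was possible because each mouse has 1 genotype and the hashtag numbers differ between groups.

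Limits are few cells of some classes (110 neutrophils, 26 inflammatory macrophages in Jak2WT mice), 2 mice with aneurysm, and low counts of Bcl2, Bcl2l1 and Bcl2a1a in several classes, where differences may not be detectable.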

Other observations

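Other family genes had levels of their own across the classes, given as a description. Pmaip1, which encodes the BH3-only protein NOXA that binds MCL1, was highest in cDC1 (204.5 ± 58.5 CPM, n = 4) and next in neutrophils (127 CPM), the class with the highest Mcl1. Bbc3, which encodes the BH3-only protein PUMA, was highest in the Rag1+ T cell cluster (56.1 ± 29.8 CPM), the cluster that was also highest in Bcl2l11. Bak1, the pore-forming partner of Bax, was highest in cDC2 (58.7 ± 23.2 CPM, n = 9). Bcl2l10 and Hrk were at 0 CPM in all classes with at least 2 mice.

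Among genes downstream, Birc3 was highest in IEG+ macrophages (236 ± 67.6 CPM, n = 9), where Mcl1 was also high, followed by Res-MGL1hi (220 CPM). Cflar was highest in Saa3+ myeloid cells (439 ± 49.1 CPM, n = 3) and IEG+ macrophages (381 CPM). Cycs, which encodes cytochrome c, was highest in proliferating cells (248 ± 46.4 CPM) and Birc2 in the Rag1+ T cell cluster (170 ± 28.4 CPM).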
